A study of Bos taurus and Felis catus with 14 samples.

Results

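The mir-424, mir-503, mir-542 and mir-450 group was examined as a set of 6 predicted precursors in the cow and 6 in the cat. Members were taken by name from the deposited predictions. A precursor counted when its name held one of these 4 family numbers whole, with any letter, copy number or suffix for a locus called without annotation, and names marked as antisense were left out. The rule found 6 of 810 bovine loci and 6 of 495 feline loci, which is 12 of 1305 in all. In both species the set held a single mir-424, a single mir-503, a single mir-542 and 3 mir-450 loci. All 12 passed into the analysis, and none was set aside for low values, because the sets hold positions and no expression values.

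The predictions come from small RNA of animal tissues, with no treatment named. The bovine set rests on 10 libraries of 10 tissues from 3 Angus steers (optic nerve, retina, corium of the foot, penis, iris, dental pulp, brain stem, submandibular lymph node, oral papillae and bone marrow), of which 1 steer gave 8 libraries and the others 1 each. The feline set rests on 4 libraries of normal skin and muscle from 3 older, male neutered domestic short hair cats of a tissue bank, of which 1 cat gave both tissues. Libraries of a species were pooled before prediction, so there was 1 set of calls per species and no replicate. Every difference below is therefore a single value per species, and no test was run. The deposited sets give no read numbers for a locus, and the study's separate tables of counts were not used here. An arm missing from a set, or a locus missing from it, was not called there and is not shown to be absent.

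A microRNA is cut from a hairpin precursor, whose stem gives a mature product from its leading side (5p) and another from its returning side (3p). MicroRNA genes that lie close together on a strand are often made from a common transcript. The group is known as an X-linked cluster of mammals. Mir-424, called mir-322 in rodents, and mir-503 belong to the wider mir-15 and mir-16 family, which is known for holding back cell cycle genes such as cyclins, and both have been studied in muscle differentiation and in vessels. Mir-542 and the mir-450 genes are the other families of the same cluster, and mir-450a is present as a pair of copies. The first bases of a mature product, its seed, choose its targets, so the place of its first base matters more for function than the place of its last. Mature sequences and seeds of the members were not analysed here.

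All 6 bovine members lay on the X chromosome on the minus strand. All 6 feline members lay on the minus strand of a sequence that the deposited set names by accession and that is taken here as the cat X chromosome. Cat positions below are given as X on that basis. Of all loci, 47.4% of bovine and 52.9% of feline ones were on the minus strand. In the direction of transcription the order in both species was mir-424, mir-503, mir-542 and then the 3 mir-450 loci. The bovine mir-450 loci were named 450a-2, 450a-1 and 450b in that order. The cat locus in the last place was named mir-450b as well. The other 2 cat loci, mir-450-Novel2 and after it a locus with the same suffix and no number, carry no letter and are matched here to the bovine a copies by place in the order alone. The members were chosen as families already known to lie together, so finding them together is no separate support for the label of a cluster.

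With neighbours at most 10 kb apart, the 6 members made 1 cluster in each species, and no other predicted locus fell within it. Of all loci, 29.0% of the bovine and 33.3% of the feline ones were in a cluster. The bovine set held 77 clusters and the feline set 57, and 52 and 39 of them were pairs. Clusters of at least 6 loci numbered 6 in the cow and 4 in the cat, so the group was among the larger ones of each set. The largest held 38 bovine and 22 feline loci.

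The bovine cluster ran from X:18178917 to 18185515, a span of 6599 nt, and the feline cluster from X:110313535 to 110319811, a span of 6277 nt. Positions are those of the deposited sets, counted from 1, and no source used here names the genome build. The bovine span was longer by 322 nt. The 6 precursors themselves made up 418 nt of it in the cow and 413 nt in the cat, so the difference lay between the precursors rather than in them.

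Mir-424 opened the cluster at X:18185454 to 18185515 in the cow and X:110319748 to 110319811 in the cat. Mir-503, its partner in the mir-16 family, followed at X:18185087 to 18185189 in the cow and X:110319399 to 110319495 in the cat. The gap between the pair was 264 nt in the cow and 252 nt in the cat, 1.05 times as wide in the cow. These 2 related genes were thus close neighbours in both species, set apart from the rest of the cluster.

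The longest gap came next, between mir-503 and mir-542. It was 4877 nt in the cow and 4758 nt in the cat, a ratio of 1.03, and filled 73.9% and 75.8% of the respective spans. Mir-542 stood at X:18180150 to 18180209 in the cow and X:110314578 to 110314640 in the cat. No predicted locus lay in this stretch in either species.

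The gap between mir-542 and the first mir-450 locus differed most. It was 854 nt in the cow and 676 nt in the cat, wider by 178 nt and a ratio of 1.26. Together with the gap before mir-542, which was wider by 119 nt, it made up 297 of the 322 nt by which the spans differed.

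The 3 mir-450 loci were the most tightly packed. Bovine mir-450a-2 (X:18179232 to 18179295) and mir-450a-1 (X:18179087 to 18179150) were 81 nt apart, and their cat counterparts (X:110313838 to 110313901 and X:110313704 to 110313767) were 70 nt apart. Mir-450b (X:18178917 to 18178981 in the cow, X:110313535 to 110313595 in the cat) followed after 105 nt in the cow and 108 nt in the cat. This last gap was the only one of the 5 that was narrower in the cow. The other 4 were wider there by 11 to 178 nt.

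**Figure D1:**
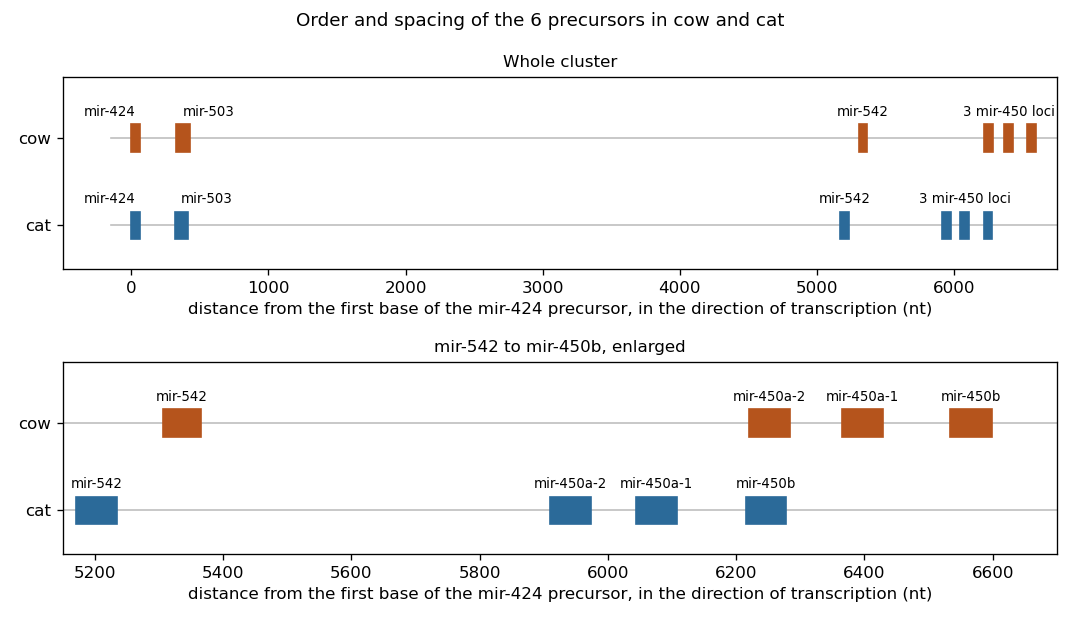
Precursors of the group drawn to scale as boxes for cow (orange) and cat (blue), with the distance in nt from the first base of the mir-424 precursor in the direction of transcription on the x axis; the lower panel enlarges the stretch from mir-542 to mir-450b. The order is the same in both species, and the bovine mir-450 loci lie farther along because the gaps before them are wider (4877 against 4758 nt and 854 against 676 nt).

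Precursor ends depend on where the prediction places the hairpin, so the distance between the first bases of neighbouring 5p products was measured too. From mir-424 to mir-503 it was 347 nt in the cow and 333 nt in the cat. From mir-503 to mir-542 it was 4958 and 4837 nt, and from mir-542 to mir-450a-2 it was 918 and 742 nt. The same gaps were again the wider ones in the cow. Between the mir-450a copies the distance was 145 and 134 nt, and from mir-450a-1 to mir-450b it was 169 and 170 nt, equal within 1 nt.

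The gaps were set beside those of other neighbouring families. In both sets, 43 ordered pairs of families were next neighbours within 10 kb on a strand exactly once, 3 of them in the group. Pairs were matched by family number between called loci. A locus not called in a species, or another copy of a family, could therefore change a gap and its ratio. Over all 43 the ratio of the bovine to the feline gap had a median of 1.0 and ran from 0.20 for mir-376 and mir-654 to 1.50 for mir-487 and mir-382, and 28 pairs (65.1%) were between 0.9 and 1.1. The ratios of 1.05 for mir-424 and mir-503 and of 1.03 for mir-503 and mir-542 were within that range, which was chosen after the values were seen. The ratio of 1.26 for mir-542 and mir-450 was outside it and ranked 3 of 43 from the widest in the cow. The gap of mir-503 and mir-542 was the second longest of the 43 in the cow and in the cat.

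**Figure D2:**
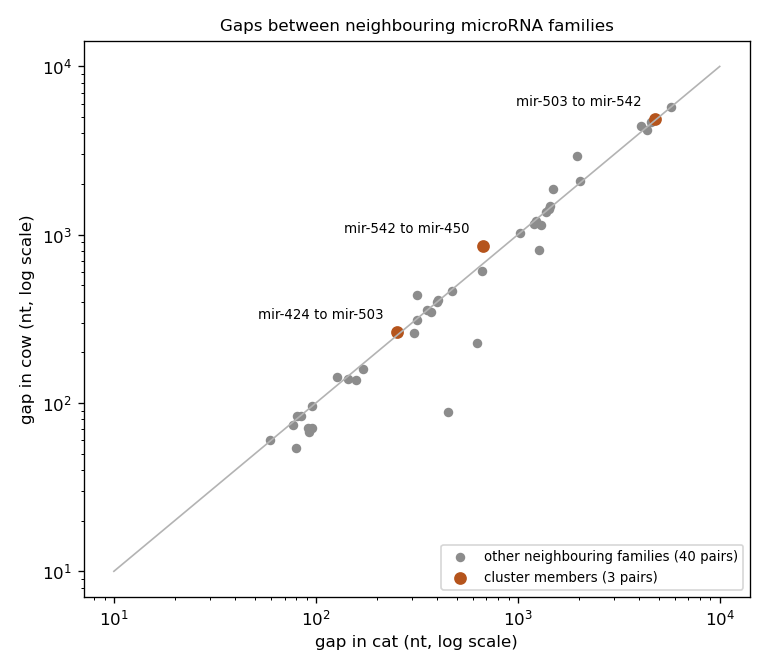
Gap in the cow (y axis, nt, log scale) against the gap in the cat (x axis, nt, log scale) for 43 pairs of neighbouring families, with the 3 pairs of the group in orange and the line of equal gaps in grey. The pair mir-542 and mir-450 lies above the line (854 against 676 nt), and the other 2 pairs of the group lie close to it.

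Both arms gave a product in all 6 members of each species, 24 products in all. Among all loci, 72.5% of the bovine and 65.7% of the feline ones had both arms. Bovine products of the group were 21 to 23 nt long and feline ones 20 to 22 nt, with a median of 22 nt in both. Products of 22 nt numbered 6 of 12 in the cow and 8 of 12 in the cat. The 4 products of 23 nt were all bovine, and the 2 of 20 nt were both feline. Over all loci, products of at most 20 nt numbered 122 of 1397 in the cow and 63 of 820 in the cat. The median over all loci was 22 nt for either arm in each species, so the lengths in the group are not read as a difference between species.

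Mir-424 showed 5p products of 21 nt in both species, at bases 2 to 22 of the precursor in the cow and 3 to 23 in the cat. Its 3p product held bases 39 to 59 in the cow (21 nt) and 40 to 61 in the cat (22 nt). Counted from the first base of the 5p product, the 3p product began at base 38 in both, and it ended 1 base later in the cat. The first bases of both mir-424 products thus kept the same distance, 37 nt, from each other in cow and cat.

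Mir-542, whose family is separate from mir-424 and mir-503, had a 5p product of 23 nt at bases 1 to 23 in the cow and of 22 nt at bases 2 to 23 in the cat. Its 3p product was 22 nt in both, at bases 38 to 59 and 39 to 60. From the first base of the 5p product, the 3p product ran from base 38 to base 59 in both species. The bovine precursor was called so that the 5p product began at its first base, with 1 nt left after the 3p product, and no bovine locus with both arms had less after its 3p product.

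The mir-450a copies gave the same layout in all 4 loci of both species. Each precursor was 64 nt long with a 5p product at bases 5 to 26 and a 3p product at bases 40 to 61, both 22 nt. No position differed between the copies of a species or between the species. Copies of mir-450a share much of their sequence and reads could match both loci, so their calls need not rest on separate reads.

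Mir-450b, the single b form at the end of the cluster, differed from the a copies and between species. In the cow its precursor was 65 nt long, with a 5p product at bases 5 to 27 (23 nt) and a 3p product at bases 41 to 62 (22 nt). In the cat it was 61 nt long, with products at bases 3 to 23 (21 nt) and 39 to 58 (20 nt). The 3p product began at base 37 from the first base of the 5p product in both species. Both cat products were shorter by 2 nt and, counted from the first base of the 5p product, ended 2 nt earlier. Sequences were not aligned, so which end of the products differs between the species is not known.

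Mir-503 had the layout most unlike the others. Its bovine precursor was 103 nt long, with a 5p product at bases 23 to 45 (23 nt) and a 3p product at bases 63 to 85 (23 nt). Its feline precursor was 97 nt long, with products at bases 20 to 39 (20 nt) and 61 to 82 (22 nt). From the first base of the 5p product to the last base of the 3p product it measured 63 nt in both species. Within that stretch the cat 5p product ended 3 bases earlier and the cat 3p product began 1 base later.

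**Figure D3:**
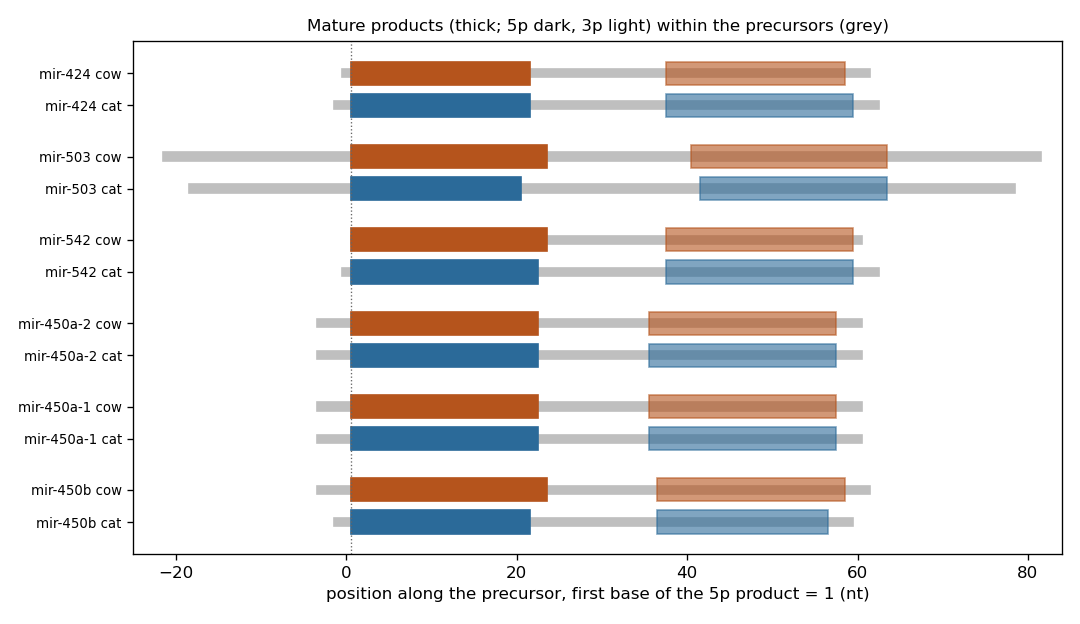
Mature products (thick bars, 5p dark and 3p light) within the predicted precursors (grey) for each member in cow (orange) and cat (blue), with position in nt counted from the first base of the 5p product on the x axis. The 3p products begin at the same base in cow and cat except in mir-503 (base 41 against 42), whose precursors also reach 15 to 22 nt beyond their products.

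The distance from the first base of the 5p product to the first base of the 3p product was therefore equal in 5 of the 6 matched members. It was 37 nt for mir-424 and mir-542, 35 nt for both mir-450a copies and 36 nt for mir-450b. Only mir-503 differed, with 40 nt in the cow and 41 nt in the cat. The median over all loci with both arms was 38 nt in each species, so mir-503 was above it and the other 5 members below it.

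For comparison, 154 loci with a plain name occurred once under that name in both sets, and 130 of them had both arms in both. The distance was equal in 102 of the 130, which is 78.5%, and it was within 1 nt in 118. Of the 130, 4 were members of the group, and 3 of these had an equal distance. The cat mir-450a loci carry other names and are not among the 130. The 5 of 6 found for the members was close to that background.

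Product lengths and last bases were equal in 3 or 4 of the 6 members, against 5 of the 6 for the distance between first bases. These counts differ by few loci. Over the 130 loci the distance was equal in 78.5%, close to the shares for product lengths given here. No share over the 130 was taken for the 3p last base. The 5p product had the same length in 3 of the 6 members, against 76.9% of the 130 loci. The 3p product ended at the same base, counted from the first 5p base, in 4 of the 6, and its length was equal in mir-542 and both mir-450a copies, against 76.2% of the 130 loci. Precursor length was the same in 2 of the 6, both of them mir-450a copies, against 37.0% of the 154 loci.

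The count depended on where positions were counted from. From the first base of the precursor, the 3p product began at the same base in 2 of the 6 members, both mir-450a copies. From the first base of the 5p product it did so in 5 of the 6. The first base of the precursor itself lay at different distances from the 5p product in mir-424, mir-542, mir-450b and mir-503. The count of 2 was not set beside a share over loci of the same name.

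Apart from mir-503, the members had precursors of 60 to 65 nt in the cow and of 61 to 64 nt in the cat, below the medians of all loci (66 nt of 810 bovine and 65 nt of 495 feline loci). Mir-503 was far longer in both sets. In the cow, 24 of 810 loci were 103 nt or longer, mir-503 included, and in the cat 35 of 495 were 97 nt or longer.

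Most of the extra length of mir-503 over the other members lay outside its products. The stretch from the first 5p base to the last 3p base, 63 nt in both species, was still the larger part of the precursor. The bovine precursor held 22 nt before the 5p product and 18 nt after the 3p product, and the feline one 19 and 15 nt, where the medians over loci with both arms were 2 and 3 nt in each species. At least as much was found before the 5p product in 42 of 587 bovine and 28 of 325 feline loci, and after the 3p product in 47 and 28. Between the products mir-503 had 17 nt in the cow and 21 nt in the cat, where the medians were 16 nt. The other 5 members had at most 4 nt before and 3 nt after their products in either species.

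At least 15 nt on each side, a limit chosen after the mir-503 values were seen, was found in 12.1% of bovine and 8.31% of feline loci with both arms. Among the 130 loci of the same name, 10 had such flanks in both species, mir-503 among them. A further 11 had them in the cow alone and 6 in the cat alone.

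**Figure D4:**
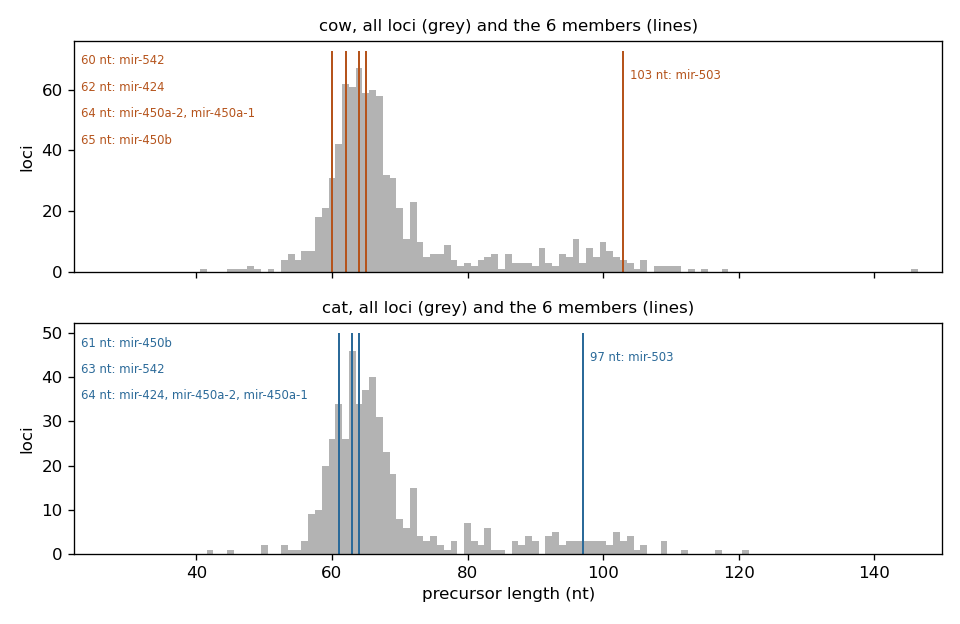
Number of predicted loci (y axis) at each precursor length in nt (x axis) for cow (upper panel) and cat (lower panel), with coloured lines at the lengths of the 6 members. Mir-503 lies in the long tail at 103 nt in the cow and 97 nt in the cat, and the other members lie near the peak at 60 to 65 nt.

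The members were compared with the genes of the wider mir-15 and mir-16 family to which mir-424 and mir-503 belong. The bovine set held 6 such loci (mir-15a, mir-15b, mir-16a, mir-16b, mir-195 and mir-497) and the feline set 8, with a further mir-15 and mir-16 without annotation, and no locus named mir-322 was found in either. None lay on the members' sequence, and they came in neighbouring pairs, 3 in the cow and 4 in the cat. The mir-195 and mir-497 pair was 259 nt apart in the cow and 255 nt in the cat, close to the 264 and 252 nt of mir-424 and mir-503. The mir-15 and mir-16 pairs were closer, at 79 and 82 nt in the cow and 76 to 84 nt in the cat.

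In these relatives the distance from the first 5p base to the first 3p base ran from 37 to 42 nt in both species, as far as both arms were called. Mir-15 loci had 37 or 38 nt, near the 37 nt of mir-424, and mir-16 loci had 41 or 42 nt, near the 40 and 41 nt of mir-503. Mir-195 had 38 nt in both species and bovine mir-497 had 40 nt. Values of 37 or 38 nt are not particular to this family. The median over all loci with both arms was 38 nt in each species, and mir-542, of a separate family, also had 37 nt. Feline mir-497 was the only one of the 14 with a single arm. In the mir-15 and mir-16 pairs the mir-15 locus had the shorter distance, and in the bovine mir-497 and mir-195 pair mir-195 did. Any unequal distances make a shorter and a longer one, so this is not read as a layout shared with mir-424 and mir-503. In the direction of transcription, bovine mir-497 came first with the longer distance, whereas mir-424 came first with the shorter.

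On the X chromosome, which held 62 bovine and 43 feline loci, the nearest loci outside the cluster were far away. Beyond mir-450b the nearest was mir-106a in the cow, at 260319 nt, and an unannotated mir-19 locus in the cat, at 263859 nt. Both carry family names of the X-linked group of the mir-106, mir-18, mir-20, mir-19, mir-92 and mir-363 families. That group is related to the mir-17 to mir-92 cluster known for promoting cell growth. Loci were placed in it here by family name and chromosome alone, with no limit on distance. Beyond mir-424 the nearest was mir-504 in both species, at 3898183 nt in the cow and 3083655 nt in the cat. Mir-505 came next in both, so the nearest families on the mir-424 side were the same in cow and cat. On the mir-450b side they differed, with mir-106a and mir-18b in the cow and a pair of mir-19 loci in the cat.

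The mir-106 to mir-363 group differed from the members in how much of it was found. The bovine set held 6 of its loci, all with both arms. The feline set held 4 (mir-363, a mir-92 and a pair of mir-19 loci), none with both arms. The members, farther along the same chromosome, were found with both arms in both. Whether depth or the tissues sampled played a part was not tested.

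RefSeq genes of the bovine assembly ARS-UCD2.0, whose positions differ from those of the deposited set, were used for names and order alone. In that table all 6 bovine members matched a gene, in the same order. The cluster lay between HPRT1, which encodes a purine salvage enzyme, beyond mir-450b, and PLAC1, a gene known for its expression in placenta, beyond mir-424. No annotated gene spanned the whole cluster. The table held 7 genes within the span, the extra one being MIR3601, which overlaps MIR542. No locus named mir-3601 was in the bovine set.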

How the data were processed

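Per the study's methods and the submitters' processing notes, reads were trimmed with cutadapt 1.15, aligned with Bowtie, with reads of too many genome matches left out, and passed to miRWoods, which scores read stacks and then hairpins with random forests. The deposited values are genomic start and end positions in nt, counted from 1, of precursors and of mature products, with strand and name; the authors' score field is blank and the sets hold no read numbers. The study's separate tables of mature counts were not used here, so no depth is given and counting intervals were not computed. Precursor ends are chosen by the program, which affects lengths and positions counted from them.

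The members and lists were chosen with earlier results of these data known. All members were named, with their nearest predicted loci, the X-linked mir-106 to mir-363 families, the mir-15, mir-16, mir-195, mir-497 and mir-322 loci, and annotated neighbours. Gaps were measured between precursor spans, and cow and cat members were matched by family and order. Positions follow the transcribed strand. No test was used, as each species has 1 set of calls over pooled libraries. Loci of the same name had to occur once in each set. Clusters were found with Python 3.11.15, in a procedure tested on simulated layouts, and figures used matplotlib 3.10.9. Alternatives varied the cluster distance, its measure, the reference base and the arm rule. Mature sequences were not analysed here.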

Additional observations from a re-analysis of the deposited data

How the results depend on the processing

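Of 21 alternatives tried, 17 left the value as it was and 4 moved it. With gaps of at most 1 kb, the largest group of members fell from 6 to 4 loci (mir-542 and the 3 mir-450 loci) in the cow and from 6 to 4 in the cat, because the gap before mir-542 is longer than that. Limits of 5 or 50 kb, the same strand alone, or distance from start to start left all 6 together. Counting from the first base of the 5p product raised the members whose 3p product began at the same base in cow and cat from 2 to 5. With neighbours up to 50 kb apart, 45 family pairs gave a median ratio of 0.99 in place of 1.0. Counting antisense names, the distance between 5p first bases and arms taken from the place in the precursor changed no count. The last base of the 3p product, counted from the first base of the precursor, also left the count at 2. Counted from the first base of the 5p product, that last base was equal in 4 of the 6 members. No paired analysis was possible because no result comes from a test. The deposited sets hold no read numbers and the study's count tables were not used here, so no depth can be set beside arms or loci that were not found.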
